A study of Mus musculus with 9 samples.

Results

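The nuclear genes of respiratory complexes II to V were followed in sorted bone marrow stem and progenitor cells of control mice and of mice at 2 stages of leukemia. Genes were taken by symbol: Sdha to Sdhd, and all symbols beginning with Uqcr, Cox4 to Cox8 or Atp5. This gave 46 of the 18193 genes named on the array, with 4 in complex II, 8 in complex III, 17 in complex IV and 17 in complex V. Of these, 44 were bright enough to be tested among 12652 genes. Cox7a1 and Cox7b2, tissue forms of complex IV subunits, were too dim: Cox7a1 averaged 10.6 ± 0.109 among controls, 13.3 ± 2.48 at day 7 and 8.33 ± 0.637 at day 14 in intensity (SD, n = 3), and Cox7b2 lay between 2.57 and 3.60 in all 9 arrays. Cox7b, the widespread counterpart of Cox7b2, was not analysed here.

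Complex II, succinate dehydrogenase, takes electrons from succinate and is at once an enzyme of the TCA cycle. Complex III passes electrons on to cytochrome c, complex IV hands them to oxygen, and complex V, the ATP synthase, makes ATP from the proton gradient that the chain builds. Most subunits are encoded in the nucleus and a few in mitochondrial DNA; blood stem cells are known for low respiratory activity and progenitors for more. The mitochondrially encoded subunits were not analysed here, as 0 of the 12 symbols listed for them named a probe set.

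All cells were sorted as CD45.1+ LKS+ from the marrow of C57BL/6 mice aged 8 weeks. LKS+ cells lack lineage markers and carry Kit and Sca-1. The groups were control mice, mice at day 7 of acute myeloid leukemia and mice at day 14, with 3 arrays each (Affymetrix Mouse Genome Array 430 2.0). The labels give neither the agent nor the transplant that caused the leukemia, nor a day for the controls, so stage and elapsed time cannot be told apart. The replicates are called biological, but separate animals or sorts are not stated, so p-values may reflect no more than technical spread. The 9 named stem and progenitor markers, Kit and Flt3 among them, and Ptprc, which encodes CD45, were above the 40th percentile in every array, while Ly6a, which encodes Sca-1, was not named by a probe set. Of these 9, 2 fell at day 14: Cd48, a marker of progenitors, by a change of -0.85 (limma adjusted p 9.8e-05), from means of 1253 in control and 1337 at day 7 to 700.3, and Procr by -0.43 (adjusted p 0.012). The erythroid genes Hba-a1 and Alas2, the T and NK genes Cd3d, Cd3g and Ncr1 and the B cell gene Ms4a1 were below that percentile in every array. The 4 other named erythroid genes were above it in every array, and their list summed to 3832 to 4877 in control, 3828 to 4149 at day 7 and 3244 to 4055 at day 14, most of it Car2, with 0 of 4 called at day 14. The controls were uneven in Car1 and Klf1, at 277.5 ± 341 and 78.6 ± 66.3 (SD, n = 3). At day 7 these were 146.5 ± 14.3 and 58.4 ± 3.75, and at day 14 54.7 ± 34.9 and 35.8 ± 8.11. Their day 14 changes were -1.75 and -0.84 (limma adjusted p 0.062 and 0.12). B lineage sums (5 of 6 named) ran from 189.7 to 200, from 194.3 to 212.1 and from 168.4 to 187, where Cd79b fell by a change of -0.58 (adjusted p 0.0001) and Ebf1 and Cd79a rose, Ebf1 from a mean of 4.91 in control to 31.2. Summed megakaryocyte and platelet markers (6 of 6 detected) ran from 585.2 to 665.3 in control, from 731.8 to 779.4 at day 7 and from 1577 to 1857 at day 14, and 5 of the 6 rose at day 14. Summed macrophage markers (4 of 5 named) ran from 706.5 to 1196, from 705.1 to 976.8 and from 1412 to 2075 in the same order. Most of this was Csf1r, which rose from a mean of 740.2 in control to 1532 at day 14. Adgre1 also rose, Cd68 fell from 120.6 to 86.7, and Itgam did not pass. Summed neutrophil markers (8 of 8 named) ran from 5168 to 6176, from 5863 to 7119 and from 6872 to 8317. Elane, Mpo and Prtn3 rose at day 14 while S100a8 and S100a9 fell, from 32.8 to 16.9 and from 34.3 to 21.5. Sums of the T and NK markers (5 of 6 named) ran from 66.06 to 77.82, from 117.4 to 140.1 and from 186.7 to 233. The increase was mostly that of Cd28, with means of 30.8 in control, 84.0 at day 7 and 159.6 at day 14. Cd3e was dim and rose from 19.0 in control to 25.8 at day 14. The part of these other cells in the results was not tested. In such bulk samples, fewer cells of a type and less RNA per cell cannot be told apart.

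The members were bright: 40 of the 44 lay above the 75th percentile of their array on average, and their median percentile was 97.5. The 4 below it were tissue forms, namely Cox4i2, Cox6a2, Cox8b and Cox8c. In the median member, replicates differed by a log2 SD of 0.071 in control, 0.038 at day 7 and 0.061 at day 14, against 0.093, 0.072 and 0.098 over all genes tested. Control replicate 3 was the lowest control in 32 of 44 members, and in 40.5% of all genes tested.

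Most respiratory genes were lower at day 14 than in both other groups, and a few were higher at day 7 than in control. In what follows a gene rose or fell if its Benjamini-Hochberg adjusted p was below 0.05 in limma, fitted on log2 intensities over all 12652 genes. At day 7, 5 of 44 members rose against control (11.4%, where 2.21% of all genes tested did so) and 0 fell (1.13% of all genes). At an unadjusted p below 0.05 26 members were higher and 0 lower (59.1% and 0%, against 12% and 7.9% of all genes). The count of 5 was unstable: it was 0 to 6 with 1 array left out (0 without day 7 replicate 2). With a common 75th percentile it was 2 (1.85% of all genes), and with array weights 23 (10.7% of all genes). At day 14, 29 of 44 fell against control (65.9%, against 34.1% of all genes) and 2 rose (18.3% of all genes). Between the stages, 37 of 44 were lower at day 14 than at day 7 (84.1%, against 33.6% of all genes) and 2 were higher (17.4% of all genes). The members were bright, and with a stricter filter (60th percentile) larger shares of all genes fell. There 29 of 42 members fell against control, against 42.4% of all genes, and 37 of 42 were lower than at day 7, against 41.6%. The comparisons share arrays, the first and the second the controls and the second and the third the day 14 arrays, so their counts are not independent. The median member differed from control by 0.17 at day 7 and by -0.26 at day 14 on the log2 scale, and by -0.46 between day 14 and day 7. The median of all genes was 0.013, -0.061 and -0.059 in the same comparisons.

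**Figure D1:**
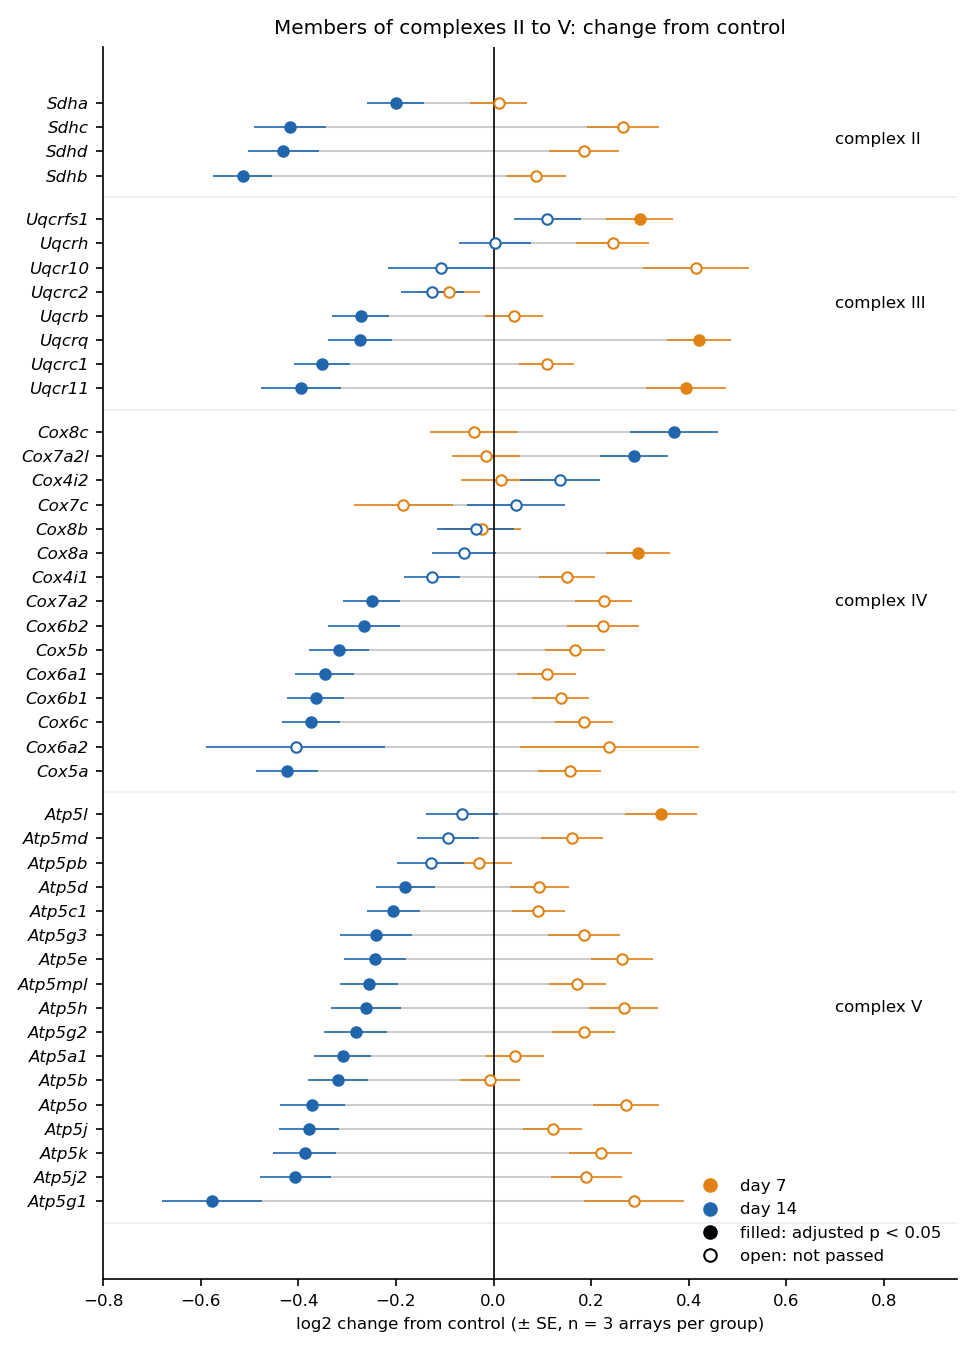
Log2 change of each tested member, grouped by complex, for day 7 and day 14 against control. Points stand for the fitted change, filled where the test was passed, and bars for its SE from limma (3 arrays per group); 38 of the 44 day 14 values are below 0, and 37 of the 44 day 7 values are above it.

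The counts depend on how the arrays were scaled, since the 75th percentile of intensity was 115 to 119 in the day 14 arrays and 127 to 130 in the others. With every array set to the same 75th percentile, the median of all genes at day 14 against control moved from -0.061 to 0.06, and 17 members fell (23.2% of all genes) while 4 rose (31.2%). Against day 7, 31 members were then lower (23.3% of all genes) and 4 higher (31.8%). The genes added to those that rose against control were Cox4i2 and Uqcrfs1, and 5 members that had not passed the test, Atp5l, Atp5md, Cox8a, Cox8b and Uqcr10, changed sign. With quantile normalization 28 members fell and 2 rose against control, where 26.8% and 22% of all genes did. None of the members called in these 3 comparisons changed sign under either scaling.

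Members were also counted by whether the arrays of 2 groups overlapped, a rule that more of all genes met than the test. At day 7, all 3 arrays lay above all controls in 32 members and below them in 1 (15.2% and 11.3% of all genes). At day 14, all 3 lay below the controls in 32 members and above them in 2 (37.3% and 20.8% of all genes), and below the day 7 arrays in 38 and above them in 3 (38.6% and 21.7%). In 26 of 44 members (59.1%) every day 7 array lay above every control array, and every control array above every day 14 array. This order was seen in 6.40% of all genes tested (810 genes). It held for 24 members with quantile normalization and for 19 with a common 75th percentile (5.3% and 4.2% of all genes), checks chosen after seeing the data. By group means, 34 of 44 members ran from day 7 down to control and then day 14. Cox7a2l, Cox7c and Cox8c had their highest mean at day 14 and their lowest at day 7, and Cox4i2 had its highest mean at day 14 and its lowest in control without passing any test.

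**Figure D2:**
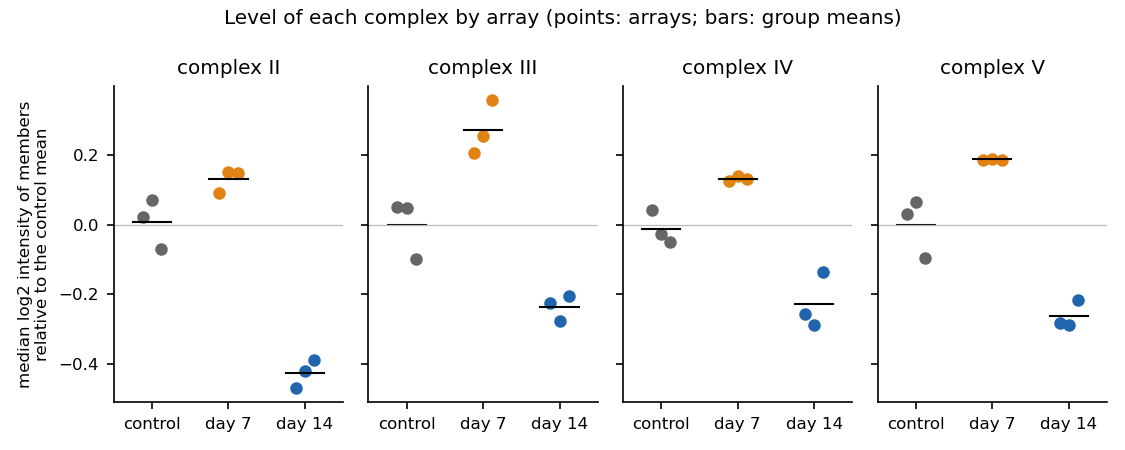
Median log2 intensity of the tested members of each complex in each of the 9 arrays, relative to the control mean; points are arrays and lines the group means. In each of the 4 complexes the 3 day 7 arrays lie above the 3 controls and the 3 day 14 arrays below them.

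Each complex showed that order when its members were summarised per array as the median log2 distance from the control mean. For complex II this distance averaged 0.00753 ± 0.0714 among controls, 0.131 ± 0.0335 at day 7 and -0.424 ± 0.0409 at day 14 (SD, n = 3). Complex III had 0.0004 ± 0.0852, 0.272 ± 0.0774 and -0.235 ± 0.0368. For complex IV the values were -0.0116 ± 0.0476, 0.132 ± 0.00764 and -0.227 ± 0.0792. Complex V had -0.000267 ± 0.0848, 0.187 ± 0.00208 and -0.262 ± 0.0408. Whether the complexes differ from each other was not tested, and their order turned with the choice of probe set. The arrays nearest each other across groups were control replicate 2 and day 7 replicate 1 in complex II, at 0.0707 and 0.092.

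Because the members moved together, their promoters were searched for the letters of factors known to drive respiratory genes: NRF1, the ETS factor GABPA and YY1. RefSeq promoters of assembly GRCm38.p6, from 250 bases before the start site to 50 after it, were held for 35 of the 46 members. The NRF1 palindrome with 1 middle base left free stood in 10 of 35 (28.6%), beside 5.19% of 27025 promoters in all and 11.1% of the 10252 promoters of tested genes. Its strict form stood in 4 (11.4%, beside 1.07% and 2.25%). The ETS letters CCGGAAG stood in 13 (37.1%, beside 9.93% and 19.3%), and the longer CCGGAAGT in 4 (11.4%, beside 4.31% and 8.71%). The YY1 motif stood in 1, Atp5j (2.86%, beside 0.995% and 2.24%). Both strands were searched, a match to the strict or longer form is also one to the other form, and 19 of 35 promoters held at least 1 of the 3 motifs (54.3%, beside 14.6% and 29.2%).

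By complex, the NRF1 letters stood in 2 of 3 promoters of complex II, 1 of 5 of complex III, 1 of 12 of complex IV and 6 of 15 of complex V. A match is a run of letters and not a measured site. The 120 bases before the start site are shown for 4 members that fell at day 14 and hold a match there, for Atp5g1, which had the largest fall and holds none in the searched window, and for Cox7a2l, which rose and holds none. Capitals mark matches to the NRF1 palindrome or to CCGGAAG with any T that follows, on either strand. All 6 lie on the minus strand of GRCm38.p6 and are written 5′ to 3′ in the direction of the gene: Sdhd at chr9:50603850-50603969, Uqcr11 at chr10:80406822-80406941, Atp5k at chr5:108434400-108434519, Atp5g2 at chr15:102671048-102671167, Atp5g1 at chr11:96075632-96075751 and Cox7a2l at chr17:83514334-83514453.
Sdhd: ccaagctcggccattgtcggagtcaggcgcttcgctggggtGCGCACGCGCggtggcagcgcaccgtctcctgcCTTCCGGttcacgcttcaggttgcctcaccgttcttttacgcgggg
Uqcr11: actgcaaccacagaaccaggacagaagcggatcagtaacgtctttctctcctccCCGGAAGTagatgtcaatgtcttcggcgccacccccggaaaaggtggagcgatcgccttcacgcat
Atp5k: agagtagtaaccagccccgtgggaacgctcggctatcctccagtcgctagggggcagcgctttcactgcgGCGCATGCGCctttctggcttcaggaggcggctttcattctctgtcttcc
Atp5g2: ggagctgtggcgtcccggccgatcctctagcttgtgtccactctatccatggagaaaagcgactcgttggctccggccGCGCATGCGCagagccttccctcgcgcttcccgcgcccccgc
Atp5g1: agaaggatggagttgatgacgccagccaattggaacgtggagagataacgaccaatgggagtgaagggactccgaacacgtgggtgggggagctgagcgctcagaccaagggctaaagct
Cox7a2l: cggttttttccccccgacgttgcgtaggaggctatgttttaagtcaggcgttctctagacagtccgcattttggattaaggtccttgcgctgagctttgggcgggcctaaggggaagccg
The NRF1 match of Atp5k and Atp5g2 is the strict form, and that of Sdhd is the relaxed form beside an ETS match read on the other strand. Atp5k has a further ETS match outside the stretch shown.

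All 4 complex II genes fell at day 14 against control, with a median of -0.424, and all 4 against day 7, with a median of -0.609. Of all genes, 34.1% and 33.6% fell in these comparisons. At day 7, 0 of 4 passed in either direction (2 higher and 0 lower at an unadjusted p below 0.05 in limma). Sdhb, the iron-sulfur subunit, had intensities of 1262, 1242.5 and 1220 in control, 1309.9, 1349 and 1299 at day 7, and 834, 850.1 and 926 at day 14. The day 14 arrays lay below all others, and the day 7 arrays above the controls by a small margin. Sdhb fell by 0.51 (SE 0.061, limma adjusted p 0.0001) against control and by 0.60 (adjusted p 3.9e-05) against day 7, and its day 7 change of 0.088 had an adjusted p of 0.47.

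Sdhc and Sdhd are the membrane anchors that hold the quinone site. Sdhc read 220.3, 232 and 201 in control, 258, 246 and 281 at day 7, and 159, 162 and 167 at day 14. The 3 groups did not overlap, and the day 14 arrays were the tightest. On the log2 scale Sdhc changed by -0.42 at day 14 against control (SE 0.074, limma adjusted p 0.0011) and by -0.68 against day 7 (adjusted p 5.4e-05). Sdhd read 915, 955 and 820.4 in control, 964, 1041 and 1052 at day 7, and 638, 674 and 681 at day 14, with changes of -0.43 (SE 0.073, adjusted p 0.0008) and -0.62 (adjusted p 8.4e-05). Again no array of one group reached into another. The brightest probe set of Sdha, the flavoprotein that oxidises succinate, changed less. It was at -0.20 against control (SE 0.059, adjusted p 0.016) and at -0.21 against day 7 (adjusted p 0.012). Its day 7 and control arrays overlapped, and its call was lost in both comparisons with a common 75th percentile. A further Sdha probe set had a similar mean intensity (1153, beside 1169). That probe set changed by -0.48 against control (limma adjusted p 0.00047) and by -0.49 against day 7 (adjusted p 0.00037). The smaller change of Sdha thus depends on the probe set.

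Complex III held 3 of the 5 members that rose at day 7. Uqcrq, a small subunit beside cytochrome b, read 684, 703 and 611 in control, 874, 890.5 and 906 at day 7, and 546, 544 and 559.6 at day 14. Each group stood clear of the others, with day 7 highest. Uqcrq rose by 0.42 at day 7 (SE 0.065, limma adjusted p 0.013), and its day 14 values differed by -0.27 from control (adjusted p 0.0058) and by -0.69 from day 7 (adjusted p 3e-05). This rests on 1 of its probe sets, whose suffix marks a match to several transcripts. With probe sets of that kind left out, a dim one stood for the gene (mean intensity 38.2, beside 702.1). Its day 7 change was -0.194 (adjusted p 0.28), while a still dimmer probe set (18.5) was at 0.375 (adjusted p 0.16). The day 7 call of Uqcrq was also lost with its probe sets averaged and without day 7 replicate 2. The day 14 call against control was lost with a common 75th percentile and with its probe sets averaged, where settings ranged from -0.458 to -0.104.

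Uqcr11, the smallest subunit of the complex, gave the same order. Its intensities were 674, 685 and 577 in control, 814, 846 and 879 at day 7, and 464, 478 and 529 at day 14. The highest day 14 array stayed below the lowest control, and the lowest day 7 array above the highest control. Uqcr11 rose by 0.39 at day 7 (SE 0.082, limma adjusted p 0.033), and at day 14 it changed by -0.39 against control (adjusted p 0.0027) and by -0.79 against day 7 (adjusted p 4.6e-05). It and Uqcrq were the members called higher at day 7 and lower at day 14 against control, Uqcrq with the losses just given. Its day 7 call, unlike its day 14 calls, was lost in 9 of 21 alternative settings, among them leaving out control replicate 1 or 3, any day 7 array or day 14 replicate 2.

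**Figure D3:**
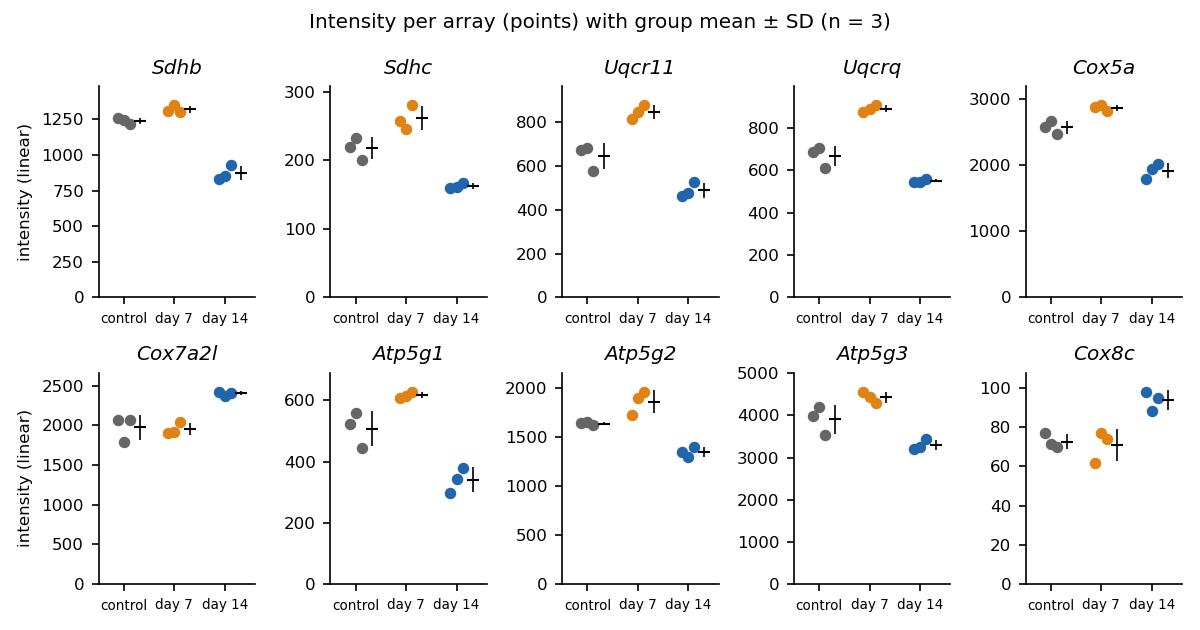
Intensity of 10 members in each array, on a linear axis from 0, with the group mean and SD (n = 3). In Sdhb, Sdhc, Uqcr11, Uqcrq, Cox5a and the 3 subunit c genes (Atp5g1 to Atp5g3) the day 14 arrays are lowest; in Cox7a2l and Cox8c they are highest.

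Uqcrfs1, the Rieske iron-sulfur protein, read 943, 916 and 821 in control, 1078, 1081 and 1133 at day 7, and 963, 923 and 1003 at day 14. It rose by 0.30 at day 7 (SE 0.069, limma adjusted p 0.046), was at 0.11 against control at day 14 (adjusted p 0.2) and was lower than at day 7 by a change of -0.19 (adjusted p 0.042). Its day 14 and control arrays overlapped, and its day 7 call was lost in 14 of 21 settings, including each of the 9 in which 1 array was left out. Uqcrh, the hinge protein that helps dock cytochrome c, was also near its control value at day 14, at 0.0032 (adjusted p 0.98), and changed by -0.24 from day 7 (adjusted p 0.02).

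Of the other complex III genes, Uqcrc1 and Uqcrb fell at day 14 against control. Uqcrc1, a core subunit, read 1609.8, 1599.8 and 1568 in control, 1745, 1671 and 1736 at day 7, and 1220.2, 1224 and 1302 at day 14. Its day 14 arrays were the lowest by a wide margin, with a change of -0.35 against control (SE 0.057, limma adjusted p 0.00061). Uqcrb, which binds ubiquinone, changed by -0.27 (adjusted p 0.0034). Uqcr10 differed from control by 0.41 at day 7 (adjusted p 0.069) and by -0.11 at day 14 (adjusted p 0.42). Between day 7 and day 14 it fell, with intensities of 699, 754 and 714 against 547, 449.8 and 516 and a change of -0.52 (adjusted p 0.0025). Uqcrc2, the second core subunit, passed no test, with -0.092, -0.13 and -0.033 in the 3 comparisons, and was the member whose day 7 arrays all lay below the controls. Of the 8 genes, 3 rose at day 7, 4 fell at day 14 against control and 7 fell against day 7, with medians of 0.272, -0.199 and -0.387. These were 37.5%, 50% and 87.5%, against 2.21%, 34.1% and 33.6% of all genes.

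Of the 15 complex IV genes tested, 7 fell at day 14 against control (46.7%, against 34.1% of all genes) and 2 rose (13.3%, against 18.3%). Between the stages, 10 were lower at day 14 than at day 7 (66.7%, against 33.6%) and 2 higher (13.3%, against 17.4%). At day 7, 1 rose against control (6.67%, against 2.21%). With a common 75th percentile 5 fell against control and 3 rose (23.2% and 31.2% of all genes). In that setting 9 were lower than at day 7 and 4 higher (23.3% and 31.8% of all genes). Cox5a, a matrix-side subunit, read 2583, 2668 and 2469 in control, 2875, 2909 and 2814 at day 7, and 1797, 1937 and 2025 at day 14. Its groups did not overlap, and its day 14 values fell below control by a change of -0.42 (SE 0.064, limma adjusted p 0.00043) and below day 7 by -0.58 (adjusted p 6.1e-05). Cox6c read 2186, 2259.5 and 2109.7 in control, 2461, 2448.5 and 2541 at day 7, and 1606, 1711 and 1745 at day 14, with changes of -0.37 (SE 0.06, adjusted p 0.0006) and -0.56 (adjusted p 5.2e-05). Cox6b1, which joins the monomers of the dimer, read 2521, 2502 and 2390.3, then 2767.5, 2722 and 2664, then 1868, 1887 and 2004. It changed by -0.36 at day 14 (SE 0.058, adjusted p 0.00057). In all 3 genes the lowest control array was above the highest day 14 array.

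The widespread subunit forms were Cox4i1, Cox6a1, Cox6b1, Cox7a2 and Cox8a. All 5 were lower at day 14 than at day 7, with a median of -0.455, and 3 of them fell against control. These were 100% and 60%, against 33.6% and 34.1% of all genes. Cox8a rose at day 7: it read 938, 957 and 897 in control, 1083, 1155 and 1189 at day 7, and 946, 859 and 873 at day 14. The day 7 change was 0.30 (SE 0.065, limma adjusted p 0.040), that of day 14 against control was -0.060 (adjusted p 0.46), and that against day 7 was -0.36 (adjusted p 0.0012). Its day 14 and control arrays overlapped, and its day 7 call was lost in 13 of 21 settings, among them leaving out control replicate 1 or 3, any day 7 array, or day 14 replicate 2 or 3. Cox4i1 was at -0.13 against control (adjusted p 0.087), Cox6a1 at -0.35 (adjusted p 0.00095) and Cox7a2 at -0.25 (adjusted p 0.005). Cox5b, which has no tissue form, changed by -0.32 (adjusted p 0.0018).

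The forms known from muscle, lung or testis followed no common direction: of the 5 tested, 1 rose and 1 fell at day 14 against control. Each was 20%, against 18.3% higher and 34.1% lower among all genes. Cox8c, a testis form, read 76.9, 71.3 and 69.9 in control, 61.6, 77.2 and 74.3 at day 7, and 98.2, 88.5 and 95.03 at day 14. Its day 14 arrays were above all others, by 0.37 against control (SE 0.090, limma adjusted p 0.0063) and 0.41 against day 7 (adjusted p 0.0035). Cox6b2, another testis form, changed by -0.27 (adjusted p 0.013), a call lost both with quantile normalization and with a common 75th percentile. Cox6a2, the heart and muscle form, read 77.2, 69.7 and 102 in control, 78.9, 88.0 and 129.7 at day 7, and 67.4, 57.8 and 60.6 at day 14. Its day 7 and control arrays overlapped and spread widely, and it was lower at day 14 than at day 7 by a change of -0.64 (SE 0.18, adjusted p 0.014), a call lost without the filter on dim probe sets. Cox4i2, the lung form, stayed between 16.7 and 21.7, and Cox8b between 12.8 and 15.7, close to the lower limit of the test, and neither passed.

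**Figure D4:**
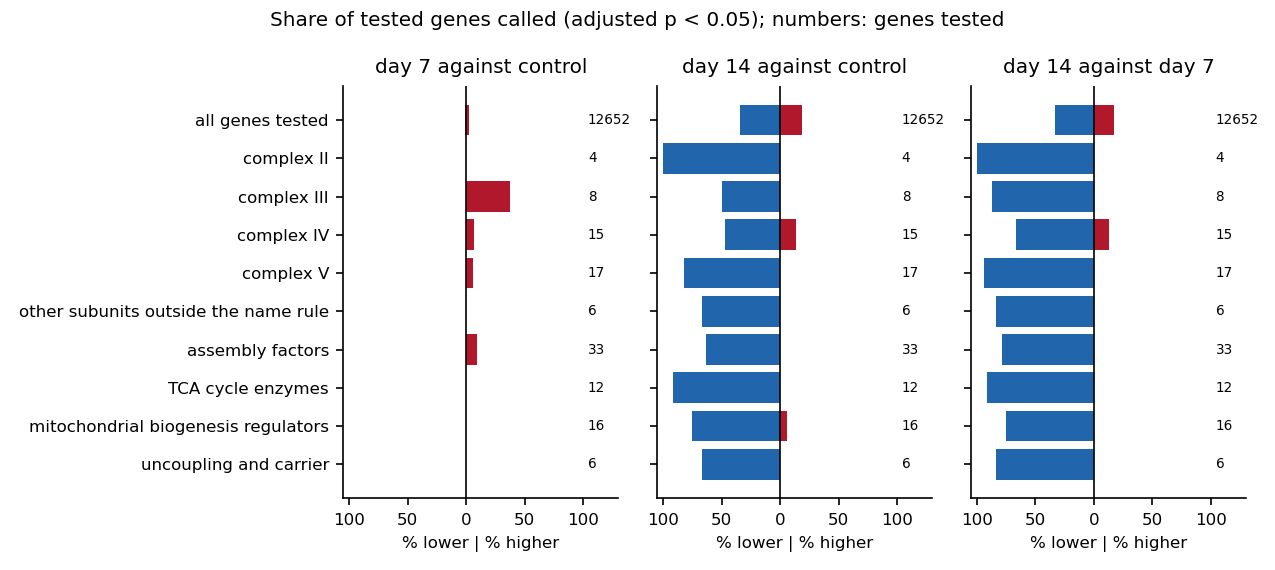
Percent of tested genes called lower (blue, to the left) and higher (red, to the right) in the 3 comparisons, by complex and by pathway list, beside the share of all 12652 genes tested; numbers give the genes tested. For day 14 against control, 100% of complex II, 50% of complex III, 46.7% of complex IV and 82.4% of complex V fell, against 34.1% of all genes.

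Cox7a2l was the member above the 75th percentile of its arrays that rose at day 14. It encodes a factor related to Cox7a2 that is known for joining complexes III and IV into supercomplexes. Supercomplexes were not measured here, and whether the protein has this function in mice of this strain was not tested. Its intensities were 2063, 1794 and 2067 in control, 1900.2, 1911 and 2039 at day 7, and 2425, 2376.5 and 2413 at day 14. All 3 day 14 arrays stood above the other 6, which overlapped. It rose by 0.29 against control (SE 0.070, limma adjusted p 0.0063) and by 0.30 against day 7 (adjusted p 0.0046), and kept both calls in 21 of 21 alternative settings. Its day 7 change was -0.015 (adjusted p 0.93). Cox7c, which had the same order of group means, was at 0.046 against control (adjusted p 0.72) and 0.23 against day 7 (adjusted p 0.081).

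In complex V, 14 of 17 genes fell at day 14 against control and 16 of 17 against day 7, with 0 higher in either. The shares that fell were 82.4% and 94.1%, against 34.1% and 33.6% of all genes. With a common 75th percentile the counts that fell were 7 and 14, where 23.2% and 23.3% of all genes fell. The 5 genes of the F1 part (Atp5a1, Atp5b, Atp5c1, Atp5d and Atp5e) all fell in both comparisons, with medians of -0.243 and -0.31. At day 7, 0 of these 5 passed (1 higher and 0 lower at an unadjusted p below 0.05 in limma). With a common 75th percentile 2 of the 5 fell against control, without Atp5c1, Atp5d and Atp5e, and 4 against day 7, without Atp5d. Atp5b, the catalytic subunit, was at -0.32 against control (SE 0.062, adjusted p 0.0018), and Atp5a1, its partner, at -0.31 (SE 0.059, adjusted p 0.0017). Atp5e, the smallest of the F1 part, was at -0.24 against control (adjusted p 0.0095) and at -0.51 against day 7 (adjusted p 0.00013). In Atp5a1 and Atp5b the day 7 and control arrays overlapped, whereas in Atp5c1, Atp5d and Atp5e they did not.

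Of the 12 other genes, of the membrane part and peripheral stalk, 9 fell against control and 11 against day 7, with medians of -0.272 and -0.484. These were 75% and 91.7%, against 34.1% and 33.6% of all genes. Subunit c, the ring that turns as protons pass, is encoded by Atp5g1, Atp5g2 and Atp5g3, which differ in their targeting peptides. Atp5g1 had the lowest change of all members: its arrays read 522, 558 and 444 in control, 609, 616 and 629 at day 7, and 299, 344 and 379 at day 14. The 3 groups were separate, and the day 7 arrays were the tightest. It changed by -0.58 against control (SE 0.10, limma adjusted p 0.001) and by -0.87 against day 7 (adjusted p 8.2e-05), and its day 7 change of 0.29 did not pass (adjusted p 0.15).

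Atp5g2 read 1639, 1648 and 1620.5 in control, 1729, 1894 and 1961 at day 7, and 1345, 1290.5 and 1401 at day 14. Atp5g3 read 3989, 4207 and 3530 in control, 4562, 4443 and 4299 at day 7, and 3213, 3240.2 and 3442 at day 14. In both genes the groups stayed separate, though the lowest control and highest day 14 arrays of Atp5g3 lay close. Atp5g2 changed by -0.28 against control (SE 0.065, limma adjusted p 0.0048) and by -0.47 against day 7 (adjusted p 0.00023). Atp5g3 changed by -0.24 (SE 0.074, adjusted p 0.019) and by -0.43 (adjusted p 0.00085). The fall against control was lost with a common 75th percentile in both, and in Atp5g3 also without control replicate 1 or 2 or day 14 replicate 1 or 2. Their day 7 changes of 0.18 and 0.19 did not pass (adjusted p 0.15 and 0.2). Whether the 3 genes differ in their change was not tested.

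Among the small membrane subunits, Atp5j2 and Atp5k fell most against control. Atp5j2 read 1798, 1885 and 1573 in control, 1962, 2022.5 and 1993 at day 7, and 1304, 1360 and 1291 at day 14, a change of -0.41 against control (SE 0.073, limma adjusted p 0.0011). Atp5k, subunit e, which helps dimerise the enzyme, read 1710.3, 1731.5 and 1535 in control, 1883, 1974 and 1931 at day 7, and 1233, 1289 and 1279 at day 14. No day 14 array reached a control in either gene. Atp5k changed by -0.39 against control (SE 0.064, adjusted p 0.00074) and by -0.61 against day 7 (adjusted p 5e-05). Atp5o, the stalk subunit that confers oligomycin sensitivity, changed by -0.64 between day 7 and day 14 (SE 0.067, adjusted p 4.6e-05), from 1137, 1132 and 1203 to 713, 742 and 769. Against control it was at -0.37 (adjusted p 0.0012).

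Atp5l, subunit g, was the complex V gene that rose at day 7. It read 1131, 1159 and 967 in control, 1338, 1366 and 1416 at day 7, and 1040, 1018 and 1047 at day 14. The day 7 change was 0.34 (SE 0.074, limma adjusted p 0.037) and that of day 14 against day 7 was -0.41 (adjusted p 0.0012), while day 14 and control overlapped at -0.065 (adjusted p 0.48). Its day 7 call was lost in 11 of 21 settings, among them leaving out control replicate 1 or 3, any day 7 array, or day 14 replicate 2 or 3. Atp5md was at -0.094 against control (adjusted p 0.24) and at -0.25 against day 7 (adjusted p 0.0071). Atp5pb, a subunit of the peripheral stalk, passed no test in its brightest probe set, at -0.030, -0.13 and -0.099 in the 3 comparisons. A further Atp5pb probe set, with a mean intensity of 1136, passed at day 14. It changed by -0.28 against control (limma adjusted p 0.011) and by -0.48 against day 7 (adjusted p 0.00049). Atp5h at -0.26, Atp5j at -0.38 and Atp5mpl at -0.26 against control completed those that fell (adjusted p 0.011, 0.00062 and 0.0048).

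Other probe sets of the same genes were compared, since 28 tested members had 40 further probe sets bright enough to test. For members called at day 14 against control there were 31 such probe sets, of which 26 had the same sign and 17 of these passed the test. The 5 with the opposite sign belonged to Atp5j2, Cox5b, Sdha, Sdhc and Uqcrq. Among probe sets with a mean intensity of at least 100, 21 of 22 had the same sign, with Sdhc the exception. Against day 7, 34 of 37 had the same sign, and 24 of 24 of the bright ones did. A dim second probe set of Atp5j2 passed the test in the opposite direction, at 0.41 against control and 0.37 against day 7. The complex II median was most sensitive to the choice, at -0.224 against control when a gene's probe sets were averaged, in place of -0.424.

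**Figure D5:**
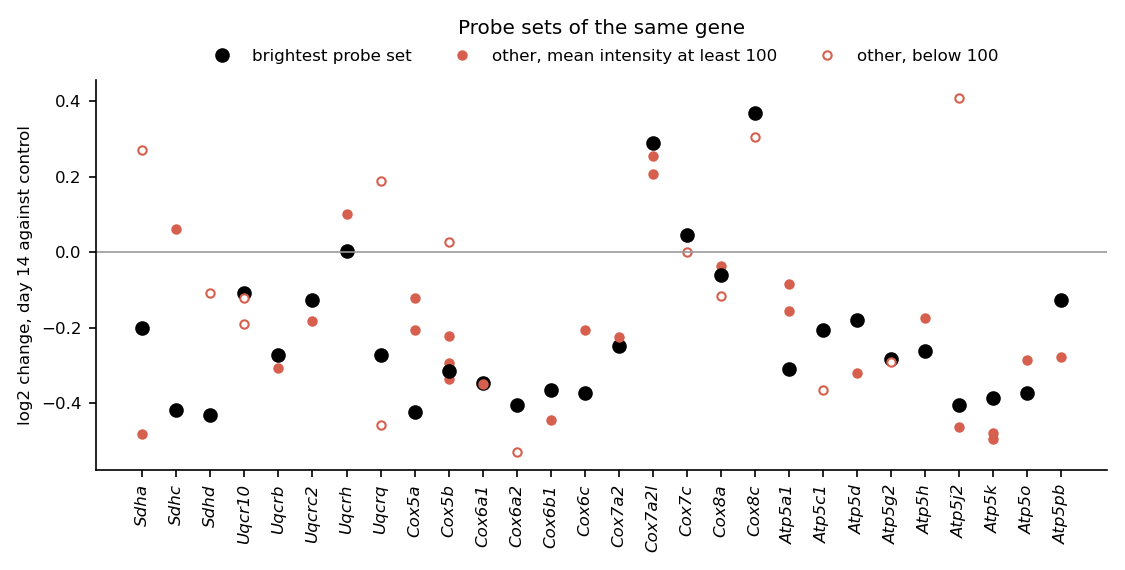
Log2 change at day 14 against control (vertical axis) of the brightest probe set (black) and of each further tested probe set (red, open where the mean intensity is below 100) of 28 members. For the members called, 26 of 31 further probe sets share the sign of the brightest, and 4 of the 5 that do not are dim.

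Genes that work with the complexes were counted from lists of 6 kinds. Of the 6 named subunits and partners outside the symbol rule, 4 fell at day 14 against control and 0 rose, with a median of -0.251. That was 66.7% lower and 0% higher, against 34.1% and 18.3% of all genes. Ndufa4, a subunit of complex IV first assigned to complex I, ran from 2581 to 3086 in control, from 3093 to 3344 at day 7 and from 1474 to 1568 at day 14. Its day 14 arrays were all lower than every control by a wide margin, and it changed by -0.88 against control (SE 0.075, limma adjusted p 1.8e-05) and by -1.09 against day 7 (adjusted p 1.2e-05). Cyc1, cytochrome c1 of complex III, changed by -0.52 (adjusted p 0.00013), and Atpif1, the inhibitor of ATP synthase, by -0.28 (adjusted p 0.013). Higd2a, which aids complex IV assembly, changed by -0.34 against day 7 (adjusted p 0.0021). At day 7, 0 of 6 passed in either direction (2 higher and 0 lower at an unadjusted p below 0.05 in limma). The lowest p-values were those of Higd1a at 0.27 (adjusted p 0.12) and Ndufa4 at 0.21 (adjusted p 0.15). The count of 4 was 2 with a common 75th percentile or without control replicate 1, where 23.2% and 30.3% of all genes fell.

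Of 33 assembly factors tested, 3 rose and 0 fell at day 7 (11 higher and 1 lower at an unadjusted p below 0.05 in limma). At day 14, 21 fell and 0 rose against control, with a median of -0.352, and 26 were lower than at day 7. The 3, 21 and 26 were 9.09%, 63.6% and 78.8%, against 2.21%, 34.1% and 33.6% of all genes. Cmc2, which acts in complex IV biogenesis, ran from 199.9 to 277 in control, from 320.9 to 354 at day 7 and from 132.6 to 150 at day 14. It rose by 0.52 at day 7 (SE 0.11, adjusted p 0.034) and fell by a change of -1.22 between the stages (adjusted p 2.5e-05). Uqcc2, needed for cytochrome b, rose by 0.34 at day 7 (adjusted p 0.046) and changed by -1.06 between the stages (adjusted p 1.4e-05). Pet100, a complex IV factor, rose by 0.35 (adjusted p 0.048). The largest falls against control were those of Atpaf1, a chaperone of the F1 head, at -0.95 (SE 0.15, adjusted p 0.00057), Cox15, which makes heme A, at -0.88 (adjusted p 3.3e-05), and Coa3 at -0.74 (adjusted p 7.5e-05). The day 7 calls of Cmc2, Uqcc2 and Pet100 were lost in 10, 12 and 16 of 21 settings, including each that left out a day 7 array.

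Of 12 tested TCA cycle enzymes, 11 fell at day 14 both against control and against day 7, and 0 rose. The 11 were 91.7% in each comparison, against 34.1% and 33.6% of all genes. Fh1, fumarase, which acts on the product of complex II, ran from 1549 to 1608 in control, from 1583 to 1615 at day 7 and from 881.2 to 961.9 at day 14. It changed by -0.76 against control (SE 0.058, limma adjusted p 1.1e-05) and by -0.78 against day 7 (adjusted p 1.4e-05). Idh3a, of isocitrate dehydrogenase, was at -0.56 (adjusted p 0.00073) and Suclg1, of succinyl-CoA ligase, at -0.52 (adjusted p 0.00014). Dld did not pass in any comparison. At day 7, 0 of 12 passed (1 higher and 0 lower at an unadjusted p below 0.05 in limma), and the lowest p-values were those of Dld at 0.16 (adjusted p 0.24) and Suclg2 at 0.14 (adjusted p 0.43). With a common 75th percentile, 5 of the 12 fell against control, where 23.2% of all genes did.

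Among 16 regulators of mitochondrial biogenesis, 12 fell at day 14 against control (75%, against 34.1% of all genes). Yy1 rose, by 0.19 (SE 0.062, limma adjusted p 0.026), a call lost when control replicate 3 or day 14 replicates 1 or 2 were left out. Myc, a transcription factor that drives growth genes, ran from 1096 to 1370 in control, from 908.1 to 1065 at day 7 and from 661.5 to 769.4 at day 14, with a day 14 change of -0.78 (adjusted p 0.00014). Tfb1m, which modifies mitochondrial ribosomal RNA, changed by -0.77 (adjusted p 2.7e-05), and Polrmt, the mitochondrial RNA polymerase, by -0.48 against day 7 (adjusted p 0.002). Ppargc1a, the PGC-1α coactivator, was dim, with means of 29.1 ± 2.53 among controls, 21.8 ± 2.54 at day 7 and 14.7 ± 1.23 at day 14 (SD, n = 3). Its change of -0.99 (adjusted p 5.3e-05) was lost without control replicate 2 or 3, and ran from -1.08 to -0.226 over the settings. The brightest probe set was chosen anew in each setting. With controls at 27.25 to 31.99 and day 14 arrays at 13.24 to 15.4, the probe set used here cannot give -0.226. Another probe set thus stood for the gene there, and the loss is no sign of 1 outlying control. Of the other factors whose motifs were searched, Gabpa changed by -0.31 against control (adjusted p 0.0054) and Nrf1 was at -0.13 (adjusted p 0.17). Against day 7, Gabpa changed by -0.21 (adjusted p 0.032) and Nrf1 by -0.36 (adjusted p 0.003). Whether these genes differ in their change was not tested. At day 7, 0 of 16 passed (1 higher and 3 lower at an unadjusted p below 0.05 in limma), with Ppargc1a at -0.42 (adjusted p 0.055) and Myc at -0.34 (adjusted p 0.088) nearest.

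Of 6 tested carriers and channels, 4 fell at day 14 against control and 5 against day 7. These were 66.7% and 83.3%, against 34.1% and 33.6% of all genes. Vdac3 and Vdac1, pores of the outer membrane, changed by -0.36 and -0.34 against control (limma adjusted p 0.0077 and 0.00094), and Slc25a4, an exchanger of ADP and ATP, by -0.28 (adjusted p 0.0022). At day 7, 0 of 6 passed, and 0 did at an unadjusted p below 0.05 in limma. The lowest p-values there were those of Slc25a3, the phosphate carrier, at -0.087 (adjusted p 0.44) and Slc25a5 at 0.10 (adjusted p 0.48).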

How the data were processed

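RNA of 9 sorted samples was measured on Affymetrix Mouse Genome Array 430 2.0 arrays after amplification in 2 cycles, per the labels' protocols and design text. The values are the authors' deposited intensities on a linear scale, 1 per probe set and array; the design text names the Affymetrix Microarray Analysis Software for their normalization. In 51.6% of probe sets at least 2 arrays hold exactly equal values, and no step that would give this is stated in the sources used here. The number of arrays limits the precision.

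Probe sets were named by the platform annotation (34945 of 45037 had 1 symbol), and the one with the highest mean log2 intensity stood for its gene. Intensities under the 20th percentile (5.81) were raised to it before log2. Genes were tested when at least 3 arrays held them over the 40th percentile of that array (14.1 to 15.2). One limma 3.58.1 model (R 4.3.3) over the 3 groups, without covariates and with moderated two-sided tests, gave changes, SEs and p-values, adjusted over all 12652 genes tested. The steps were tested on simulated data.

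Members, lists, motifs and rules were chosen with earlier results of these data known. Named members were, per comparison and complex, up to 3 called ones per direction with the largest changes among those whose groups did not overlap, members called in opposite directions at the stages, and the subunit c genes; from each pathway list up to 3 called genes per direction, or with none called the 2 with the lowest p-values. Other members and Gabpa, Nrf1, Hba-a1 and further markers were given to complete a list or a count. Promoter sequences come from RefSeq (GRCm38.p6), with 35 of 46 members matched by symbol, and were used for letters only. Alternatives were scaling, floor, filter, choice of probe set, replicate block, samples in the fit, variance prior, array weights and leaving out each array.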

Additional observations from a re-analysis of the deposited data

Results flagged for a closer look

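A difference between day 14 and day 7 is also a difference between the 2 stages' changes from the shared controls, and 37 members lower and 2 higher at day 14 passed that test in limma (adjusted p below 0.05). The 16 given here are those named by the rule for single members. In complex II the differences (log2) were -0.682 in Sdhc, -0.617 in Sdhd and -0.602 in Sdhb. In complex III they were -0.789 in Uqcr11, -0.694 in Uqcrq and -0.523 in Uqcr10. Uqcr11 and Uqcrq were called in opposite directions at the stages against control, higher at day 7 and lower at day 14. In complex IV, Cox6a2 differed by -0.644, Cox5a by -0.58 and Cox6c by -0.559, while Cox8c and Cox7a2l differed the other way, by 0.409 and 0.303. In complex V, Atp5g1 differed by -0.866, Atp5o by -0.643, Atp5k by -0.607, Atp5g2 by -0.467 and Atp5g3 by -0.427.

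A further probe set of Atp5j2, which stood for no gene in the comparisons, passed the test upward, by 0.408 at day 14 against control and by 0.37 against day 7, opposite to the brightest probe set of the gene. Groups of 3 arrays are too small for a test of single outlying samples.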

How the results depend on the processing

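The count of members that rose at day 7 (5, where 2.21% of all genes did so) varied most. It was 2 with a common 75th percentile, and 1 without the filter on dim probe sets or with only the groups compared. It was 10 with a stricter filter (60th percentile), 13 with a trended robust variance prior and 23 with array weights. Of all genes, 1.85%, 0.22%, 1.53%, 3.86%, 3.41% and 10.7% rose in these settings, in the same order. Leaving out each array in turn gave counts of 0 to 6, where 0.483% to 2.99% of all genes rose. The count was 0 without day 7 replicate 2 and 2 without day 14 replicate 3. It was 1 without control replicate 1 or 3, day 7 replicate 1 or 3 or day 14 replicate 2. With the replicate number as a block the count was 1 (1.47% of all genes). Same-numbered arrays had deviations that correlated between -0.19 and 0.12. This cannot settle whether they share more than a number, which the labels do not say. Leaving out 1 array gave 26 to 30 members lower at day 14 than in control, 35 to 37 lower than at day 7, 2 higher than in control each time and 2 to 3 higher than at day 7. With a common 75th percentile, 17 fell against control, 4 rose against control and 4 rose against day 7 (23.2%, 31.2% and 31.8% of all genes). With every probe set tested on its own (84), 45 were lower than in control and 5 higher (29.4% and 17.5% of all probe sets tested). Against day 7, 57 were lower and 4 higher (28.7% and 16.4% of all probe sets tested). At a common 75th percentile the medians against control were -0.303, -0.0781, -0.129 and -0.141 in complexes II to V, and against day 7 -0.478, -0.255, -0.323 and -0.295. With a gene's probe sets averaged, complex II had -0.224 and -0.348, and complex IV had -0.31 against day 7. With every probe set on its own these were -0.309, -0.351 and -0.333. Without probe sets that match several transcripts, complex III had 0.127 at day 7 and -0.289 between the stages, and Uqcrq, then read from a dim probe set, changed sign at day 7 to -0.194. Of the pathway lists, TCA cycle enzymes that fell went from 11 to 5, and other subunits from 4 to 2, with a common 75th percentile; leaving out 1 array gave 2 to 5 other subunits, 2 without control replicate 1. Ppargc1a at day 7 ran from -0.487 to 0.0114 with 1 array left out, changing sign without control replicates 2 (0.0114) and 3 (0.0088). The probe set used for Ppargc1a had all controls above all day 7 arrays, so another probe set stood for the gene in those 2 settings. The cause of the other shifts was not tested. Probe sets near the filter, such as Cox8b, limit what can be said of tissue forms.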
